A study of Arabidopsis thaliana with 6 samples.

Results

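The genes described here are those with a high array signal whose mean differed little between wild-type and dcl1-15 embryos of Arabidopsis thaliana. They were selected on the measured values themselves: probe sets that name a single gene, with a mean normalized log2 value over the 6 arrays of 11 or more and an absolute difference of genotype means under 0.2. A probe set is a group of short array probes read together for 1 transcript. A gene is called measured here where a probe set names it alone. Other genes may still be on the array, under probe sets with several names or none. Of 17122 probe sets that are not array controls, 9631 name a single gene and 234 of these had a mean of 11 or more. Both thresholds were met by 103 probe sets, of which 4 were set aside as organelle-encoded and 2 more by name, leaving 97 members for 97 nuclear genes. One of the 4 was the plastid gene clpP, whose prefix the selection did not list, and there would be 98 members with it. Before the difference was looked at, 228 nuclear single-gene probe sets were bright in this sense. The other 131 differed by 0.2 or more, 60 higher and 71 lower in dcl1-15.

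The study set embryos mutant for DCL1 (allele dcl1-15) against DCL1/DCL1 embryos, on 3 arrays per genotype. Each sample was RNA of 300 embryos dissected from their ovules, and both genotypes came from a Ws line crossed to Landsberg erecta 6 to 7 times. Wild-type embryos at the torpedo stage came from DCL1/DCL1 plants that segregated from a DCL1/dcl1-15 parent. Mutant embryos came from siliques in which the normal siblings were at that stage, so they were matched by the age of the silique and not by their own form. The 3 samples of a genotype are labelled as biological replicates. DCL1 itself was not analysed here, so its level gives no check of the genotypes.

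DCL1 is a nuclear RNase III enzyme that releases most plant miRNAs from longer hairpin RNAs, and miRNAs lower the level of the mRNAs they pair with. In whole-embryo RNA, a gene's signal rises or falls with the cells that express it as well as with its level per cell, and fewer cells of a type cannot be told apart from less RNA per cell. At the torpedo stage the cotyledons elongate, the embryo is green and its plastids are building thylakoids, while respiration, protein turnover and the cytoskeleton serve every cell.

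Across the table, 39.1% of probe sets passed the limma test between genotypes at an adjusted p under 0.05, with 18.3% higher and 20.8% lower in dcl1-15. The means of 4 measured seed coat markers of 6 listed lay between 6.15 and 7.71 on the wild-type arrays and between 8.38 and 9.08 on the dcl1-15 arrays. All 4 were called higher in dcl1-15. The 5 measured embryo markers of 10 listed had means of 7.27 to 7.81 in wild type and 7.30 to 7.58 in dcl1-15, and 2 of them rose while 3 fell. For the endosperm, 2 of 4 listed markers were measured, with means of 6.15 to 6.61 in wild type and 6.81 to 6.94 in dcl1-15. Of these 2, 1 was called higher and 0 lower. Whether seed coat or endosperm RNA had a part in the members' values was not tested.

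The differences of the 97 members lay between -0.19 and 0.20, with a median of -0.05, against a median of -0.07 over all probe sets. There were 63 negative and 34 positive differences. The number of negative ones depends on scale and array: it was 83 with the arrays centred on 2 reference genes, 51 with the arrays shifted to the same median and 45 without wild type 1. None of the 97 was called by limma, 1 had an unadjusted p under 0.05, and the Welch test called 0. These counts follow from the choice of members and are given as a description. Just inside the difference threshold lay AT1G78040 at 0.198 and AT1G01170 at 0.196, and just outside it AT1G15930 at -0.200 and GLY2 at 0.201. Just inside the level threshold lay AT1G01170 at 11.003 and AT4G29480 at 11.013, and just outside it AT1G51400 at 10.992 and ATHM2 at 10.969.

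**Figure D1:**
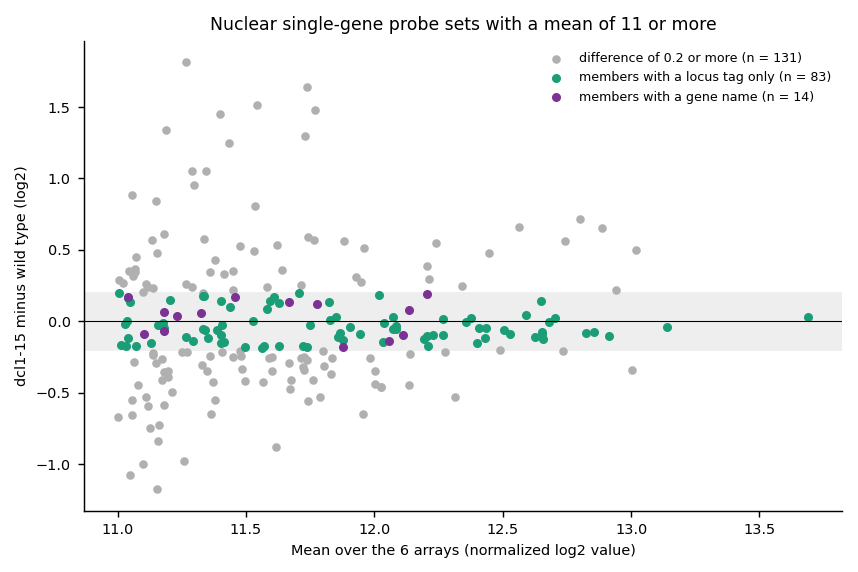
Mean normalized log2 value over the 6 arrays (x) against dcl1-15 minus wild type (y) for 228 bright nuclear single-gene probe sets; the grey band marks differences under 0.2. The 14 purple and 83 green points in the band are the members, with means from 11.003 to 13.69, and the 131 grey points outside it reach from -1.18 to 1.81.

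Gene names were available for 14 of the 97 members. The other 83 carry only a locus tag or clone names in the annotation used here, and no function is given for them. Of all single-gene probe sets 14.4% have a name, as do 14.4% of the members and 21.4% of the bright probe sets with a difference of 0.2 or more. The 14 named members fall into photosynthesis and plastids with 7, central metabolism with 2, ubiquitin and the proteasome with 2, respiration with 1, the cytoskeleton with 1, and 1 gene, ULT1, that no word class took in.

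The word classes of ribosomal proteins and of translation factors held 1 measured nuclear gene each and 0 members. Which class was largest therefore depends on which genes have names, and it does not describe the unnamed members. Among the 14 named members, genes of photosynthesis and plastids were the largest class. The class holds only genes whose names match its words, so plastid genes under other names are not counted. Of 22 measured nuclear genes of this class, not counting any set aside by name, limma called 3 higher and 5 lower. Over all probe sets it called 18.3% higher and 20.8% lower. Of the 22, 9 had a mean of 11 or more. Of the bright ones in this word class, the 2 that are no members both rose. These were LHCB4.3, a light-harvesting antenna protein, by 1.34 with an SE of 0.16, and GPDHp, a plastidic glycerol-3-phosphate dehydrogenase, by 0.58 with an SE of 0.15; they are named after their values were seen. The 7 members had 5 positive and 2 negative differences with a median of 0.06, and the sign of that median depends on the scale: with the arrays centred on 2 reference genes it was -0.08 and all 7 were negative.

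Both measured nuclear subunits of photosystem I with a PSA symbol were members. PSAN, a small subunit on the lumen side near the docking site of plastocyanin, read 12.09, 12.08 and 12.30 in wild type and 12.01, 12.07 and 12.11 in dcl1-15. Wild type 3 stood above the other 5 arrays, and the genotypes overlapped. PSAE-1, a subunit on the stromal side, read 12.32, 11.99 and 12.06 in wild type and 12.01, 12.04 and 11.92 in dcl1-15. There wild type 1 was the high array, and the other 5 lay within the range of 11.92 to 12.06.

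PSBY, a small subunit of photosystem II, read 11.36, 11.27 and 11.25 in wild type and 11.502, 11.35 and 11.21 in dcl1-15, with the highest and the lowest value both in the mutant. PSBW, the other measured nuclear gene with a PSB symbol, had a mean of 10.88, under the level threshold. Its difference was 0.07 with an SE of 0.14 (limma adjusted p = 0.75).

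Of the CURT1 genes, whose products bend the thylakoid membrane at the margins of grana, 3 were measured and 2 were members. CURT1A (AT4G01150) read 12.21, 12.05 and 12.04 in wild type and 12.12, 12.21 and 12.19 in dcl1-15. CURT1C (AT1G52220) read 11.34, 10.99 and 11.12 in wild type and 11.07, 11.37 and 11.20 in dcl1-15. In both genes wild type 1 was the highest wild-type array and dcl1-15 replicate 2 the highest mutant array, and the genotypes overlapped. CURT1D (AT4G38100) read 10.51, 10.504 and 10.74 in wild type and 10.14, 10.17 and 10.17 in dcl1-15, without overlap. It fell by 0.43 with an SE of 0.12 (limma adjusted p = 0.022), and it was not past the threshold when any 1 of the dcl1-15 arrays or wild type 3 was left out, by the Welch test, or without the intensity trend (highest adjusted p = 0.102).

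AT1G74470 is annotated as geranylgeranyl reductase, which makes the phytyl chain of chlorophyll and tocopherol. It read 11.63, 11.73 and 11.79 in wild type and 11.84, 11.69 and 11.98 in dcl1-15, with the lowest value on wild type 1 and the highest on dcl1-15 replicate 3. SBPASE, sedoheptulose-bisphosphatase of the Calvin cycle, read 11.05, 11.31 and 11.28 in wild type and 10.96, 11.42 and 11.37 in dcl1-15. The array numbered 1 was the low one in each genotype for SBPASE, and both arrays numbered 1 lay below the other 4.

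**Figure D2:**
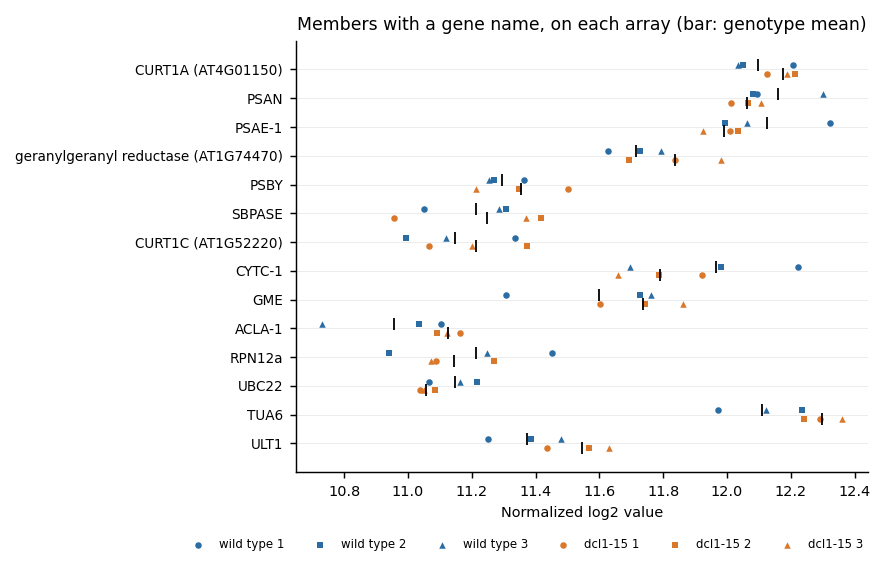
Normalized log2 values (x) of the 14 members with a gene name on each of the 6 arrays; colour marks the genotype, the symbol shape the replicate number, and the black bar the genotype mean. TUA6 is the 1 gene of the 14 whose genotypes do not overlap, and for CYTC-1, GME and RPN12a the 6 arrays spread over 0.51 to 0.57.

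CYTC-1, one of the genes for cytochrome c, the carrier of electrons between the last 2 complexes of the mitochondrial respiratory chain, was the member of this class. It read 12.22, 11.98 and 11.70 in wild type and 11.92, 11.79 and 11.66 in dcl1-15. In each genotype the array numbered 1 was highest and the array numbered 3 lowest, and the within-genotype SD of 0.21 exceeded the difference of -0.18. The other cytochrome c gene, CYTC-2, read 8.55, 7.87 and 8.30 in wild type and 9.95, 9.89 and 9.71 in dcl1-15. All mutant arrays lay above all wild-type arrays, and CYTC-2 rose by 1.61 with an SE of 0.20 (limma adjusted p = 0.00052). That call held in 14 of 15 alternatives, the exception being the Welch test (adjusted p = 0.057). The difference between the 2 genes was not tested, since CYTC-1 was chosen for a small change.

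ACLA-1 encodes a subunit of ATP-citrate lyase, which makes cytosolic acetyl-CoA from citrate. Its values were 11.10, 11.04 and 10.73 in wild type and 11.16, 11.09 and 11.12 in dcl1-15, with wild type 3 low and the other 5 arrays within 11.04 to 11.16. Of 3 other measured subunit genes, ACLA-2 differed by 0.12 (SE 0.16, limma adjusted p = 0.58) and ACLB-1 by -0.0029 (SE 0.14, limma adjusted p = 0.99). ACLA-3 rose by 1.13 with an SE of 0.27 (limma adjusted p = 0.011), from 6.01, 6.85 and 6.64 in wild type to 7.45, 7.83 and 7.63 in dcl1-15. It lost the call by the Welch test and without dcl1-15 replicate 2 (highest adjusted p = 0.103).

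GME is GDP-D-mannose epimerase, an enzyme on the route to ascorbate and to cell wall sugars. It read 11.31, 11.73 and 11.76 in wild type and 11.60, 11.74 and 11.86 in dcl1-15. Wild type 1 was the low array, and the other wild-type arrays lay inside the range of the mutant. ACLA-1 and GME are the 2 members among 5 bright genes of central metabolism. The other 3 were higher in dcl1-15: the glycolytic enzyme genes GAPC2, by 0.50, and TPI, by 0.22, and the isocitrate dehydrogenase gene cICDH, by 0.27. GAPC2 (limma adjusted p = 0.0087) and cICDH (limma adjusted p = 0.028) passed the test, and TPI did not (limma adjusted p = 0.055).

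RPN12a, a subunit of the regulatory particle of the proteasome, read 11.45, 10.94 and 11.25 in wild type and 11.09, 11.27 and 11.07 in dcl1-15. Wild type held both the highest and the lowest array. UBC22, an enzyme that passes ubiquitin on to a ligase or substrate, read 11.07, 11.22 and 11.16 in wild type and 11.04, 11.08 and 11.05 in dcl1-15, and wild type 1 lay among the mutant arrays.

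**Figure D3:**
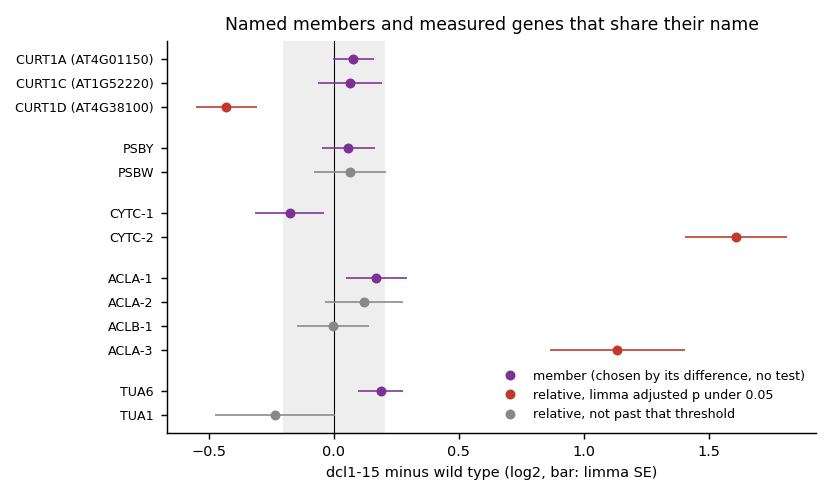
Difference dcl1-15 minus wild type (log2, x) with the limma SE as bar, for named members (purple) and measured genes that share their family name (red: limma adjusted p under 0.05; grey: not past it). The purple points lie in the grey band by choice, while CYTC-2 and ACLA-3 lie above 1 and CURT1D lies at -0.43.

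TUA6, an alpha-tubulin gene, read 11.97, 12.235 and 12.12 in wild type and 12.29, 12.24 and 12.36 in dcl1-15. The genotypes did not overlap, with wild type 2 and dcl1-15 replicate 2 less than 0.01 apart, and the difference was 0.19. TUA1, the other measured TUA gene, had a mean of 6.65 and a difference of -0.24 (SE 0.24, limma adjusted p = 0.47). ULT1, a regulator that restricts stem cell activity in shoot and flower meristems, read 11.25, 11.38 and 11.48 in wild type and 11.44, 11.57 and 11.63 in dcl1-15. In each genotype its array numbered 1 was lowest and its array numbered 3 highest, and the wild type 3 value fell between those of dcl1-15 replicates 1 and 2. Between arrays of the same number, dcl1-15 minus wild type was 0.183, 0.184 and 0.151 for ULT1. The gene was picked for this after its values were seen, and whether arrays of equal number belong together is not known. ULT1 was not called in the main fit (limma adjusted p = 0.22). With the pairing by number fitted as a block, 0 of the 97 members were called.

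Families such as the tubulins hold near-identical copies whose transcripts can bind the same probes. A member's value may therefore include a copy that was not measured on its own, and how far was not tested.

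The probe set with the highest mean of the whole table was a member, AT1G04660, which has no name in the annotation. It read 13.62, 13.71 and 13.69 in wild type and 13.703, 13.71 and 13.703 in dcl1-15. Wild type 1 was the low array, and the 3 mutant arrays lay within 0.01 of each other. AT1G52300 read 13.22, 13.20 and 13.06 in wild type and 13.10, 13.15 and 13.10 in dcl1-15, with all mutant arrays inside the wild-type range. AT5G20290 read 13.13, 12.93 and 12.84 in wild type and 12.85, 12.90 and 12.84 in dcl1-15, where wild type 1 stood highest. A value this high may lie near the upper end of the scanner's range, where changes are compressed; scanner values were not used here, and this was not tested.

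The spread within a genotype was not used to choose the members. Its pooled SD had a median of 0.125 over the 97, against 0.267 over all probe sets and 0.144 over the 131 bright probe sets with a larger difference. A small genotype difference is more likely where the spread is small, so the 0.125 is not free of the choice. By level, the median SD was 0.260 for means under 5, 0.337 from 5 to under 7, 0.287 from 7, 0.209 from 9 and 0.130 at 11 or more, counting every probe set. The share with a difference under 0.2 was 25.1%, 17.8%, 21.3%, 24.7% and 44.98% in the same steps, so neither value moved one way from the dimmest step on. It was 42.5% among the 228 bright nuclear single-gene probe sets.

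The 3 members with the smallest within-genotype SD have no names, and each kept all 6 arrays within 0.1. AT5G56710 read 12.68, 12.68 and 12.73 in wild type and 12.69, 12.71 and 12.75 in dcl1-15, an SD of 0.029. For AT3G06700 the values were 12.72, 12.70 and 12.62 in wild type and 12.67, 12.70 and 12.66 in dcl1-15, with an SD of 0.038, and AT1G04660 had an SD of 0.034.

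At the other end, AT2G26500 had the largest SD at 0.293. It read 11.54, 10.80 and 11.04 in wild type and 11.43, 11.31 and 11.10 in dcl1-15, and wild type 2 was the low array. AT2G38550 read 10.71, 11.21 and 11.20 in wild type and 10.69, 11.16 and 11.21 in dcl1-15. Both arrays numbered 1 lay about 0.5 below the other 4, so its SD of 0.288 came with a difference of only -0.02. AT4G20150 read 11.67, 11.14 and 11.30 in wild type and 11.45, 11.41 and 11.06 in dcl1-15, with an SD of 0.245. Of the 97 members, 20 had a range over the 6 arrays of 0.5 or more and 0 of 1 or more, and the median range was 0.351. The limit on the difference holds this range down. The median range was 0.673 over the bright probe sets with a larger difference, 0.523 over all 228 bright ones and 1.08 over all probe sets. How far the high level has a part in it was not tested.

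**Figure D4:**
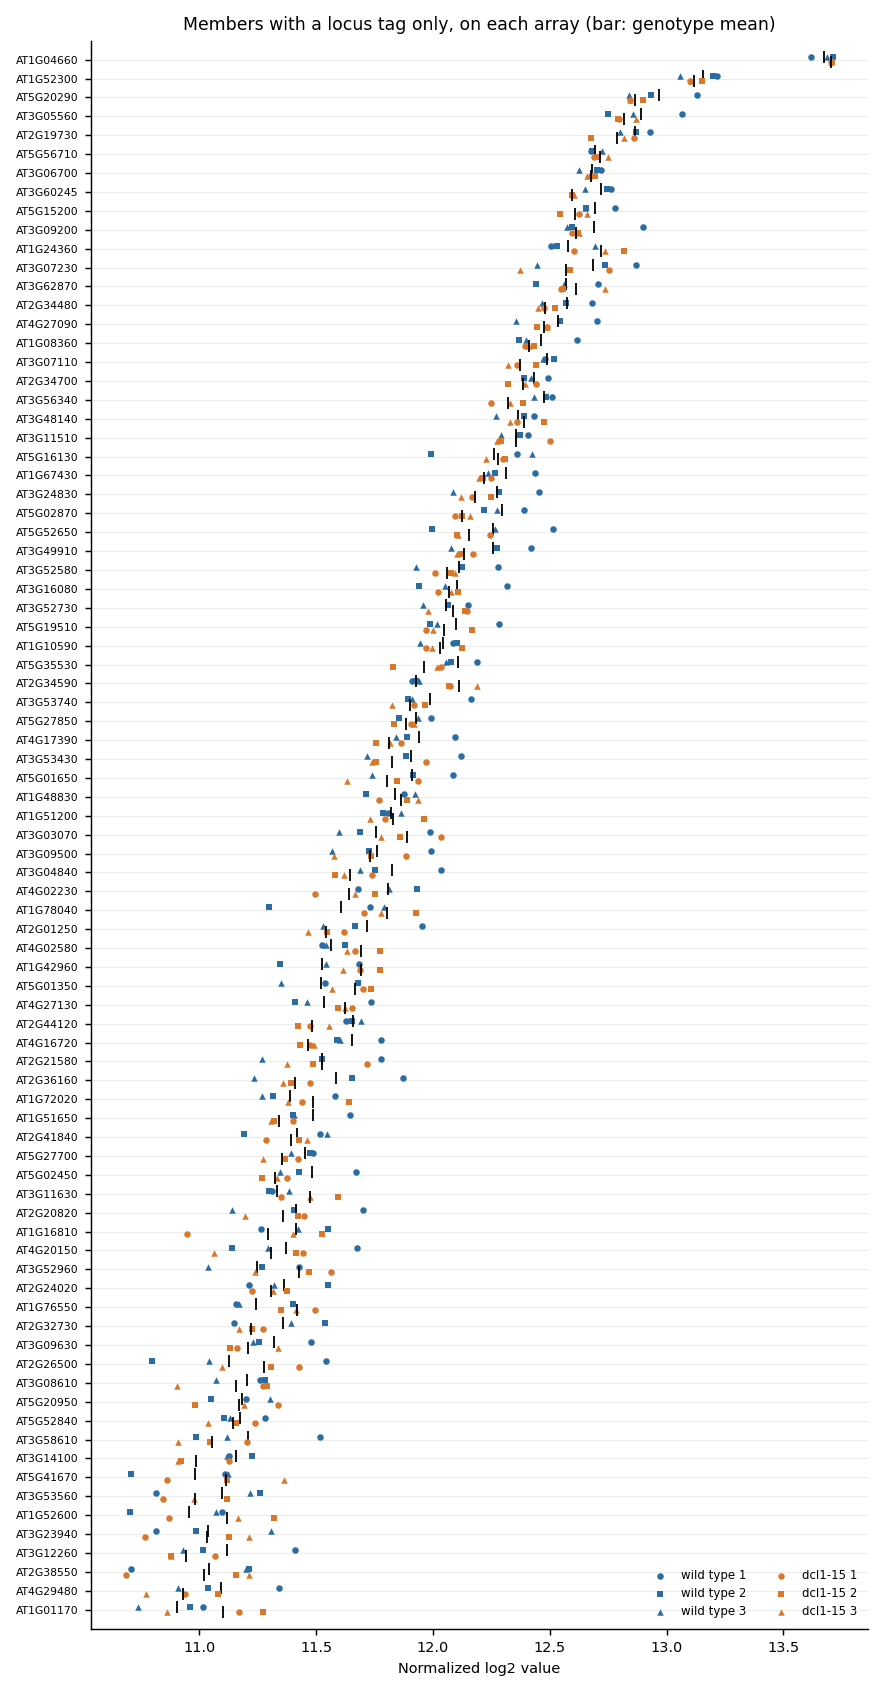
Normalized log2 values (x) of the 83 members with a locus tag only, on each of the 6 arrays, from the highest to the lowest mean; colour marks the genotype, shape the replicate number, and the black bar the genotype mean. Wild type 1 (blue circles) is the highest of the 6 arrays for 47 of the 83.

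Values within wild type were not evenly spread. Wild type 1 was the highest of the 6 arrays for 50 of the 97 members, made up of 47 of the 83 with a locus tag only and 3 of the 14 with a name. It was the highest for 42 of the 131 bright probe sets with a larger difference and for 4250 of all 17122. Its deviation from the wild-type mean had a median of 0.108 over the members and of 0.064 over the bright probe sets with a larger difference, but of -0.00099 over all probe sets. The SD was larger in wild type than in dcl1-15 for 70 of 97 members, with medians of 0.148 and 0.084. The same held for 90 of the 131, with medians of 0.147 and 0.101, and for 10728 of all 17122. Without wild type 1 the members' median difference was 0.0053 in place of -0.05, and 86 of the 97 still differed by under 0.2.

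**Figure D5:**
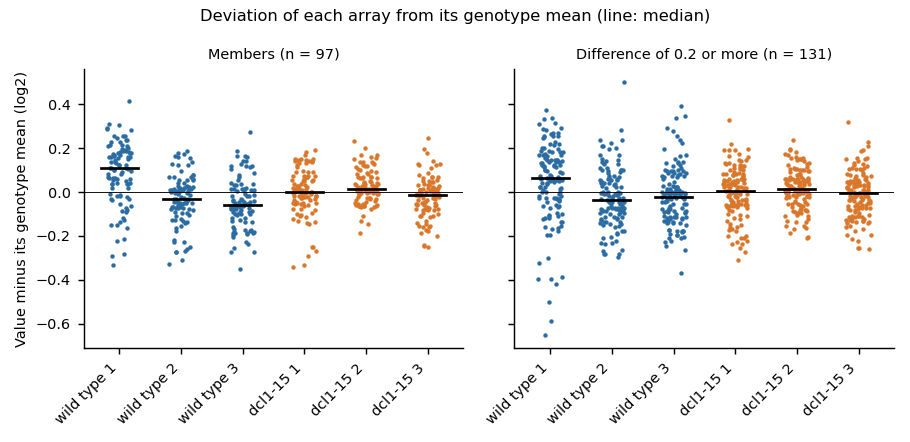
Value minus its genotype mean (log2, y) on each array, for the 97 members and for the 131 bright probe sets with a difference of 0.2 or more; each point is a probe set and the line is the median. The wild type 1 points of the members have a median of 0.108, and the medians of the other arrays lie between -0.059 and 0.016.

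The arrays of the genotypes did not overlap for 10 of the 97 members, or 10.3%, against 52.5% of all probe sets; the limit on the difference holds this share down. In 7 of the 10 the mutant arrays were lower and in 3 higher. The 3 were TUA6, AT2G34590 and AT4G02580, and apart from TUA6 each of the 10 carries a locus tag only; those named here were chosen after their values were seen. AT2G34590 read 11.91, 11.93 and 11.94 in wild type and 12.08, 12.07 and 12.19 in dcl1-15, a difference of 0.19 with an SD of 0.050. Among the lower ones, AT3G60245 read 12.76, 12.74 and 12.65 in wild type and 12.59, 12.59 and 12.60 in dcl1-15, a difference of -0.12 with an SD of 0.042.

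A list of 26 genes often used as references for plant expression measurements was compared as well. Of these, 10 were measured, and the rest may be on the array under probe sets with several names or none. Of the 10, 0 were members, since 1 reached a mean of 11. That gene, GAPC2, an enzyme of glycolysis, differed by 0.50 with an SE of 0.11 and was the 1 gene of the 10 called by limma. The median within-genotype SD of the 10 was 0.179, and their differences ranged from -0.48 to 0.50.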

How the data were processed

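Values were read from the deposited table of normalized log2 values, 1 column per array. GCRMA and MAS5 are named, per the submitters' processing notes, but not which of them gave these values. Scanner files were not used here. Of 17159 probe sets, 37 array controls were set aside. Per the platform annotation, 9631 probe sets name 1 gene, 365 several and 7126 none; names came from it and from a RefSeq table of genes (TAIR10.1).

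Genotypes were compared over all 17122 probe sets with limma 3.58.1 in R 4.3.3 (lmFit, eBayes with an intensity trend) and Benjamini-Hochberg adjustment, with a threshold of 0.05. The fit was tested on simulated data. A difference is the dcl1-15 mean minus the wild-type mean, in log2 units. With 3 arrays per genotype, their number limits the precision. Tables and plots were made with Python 3.11.15, pandas 2.3.3 and matplotlib 3.10.9.

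Function classes were set only by words in the symbols and synonyms that the 2 tables hold, first match first. No role was given to a gene those tables leave unnamed. Genes named were the 3 members with the highest mean, the 3 with the smallest and the 3 with the largest within-genotype SD, the 2 brightest of each class with 3 or more members, and those next to each threshold. The other named members and the genes that share a family name with them were added after their values were seen, and 1 family is not reported here. The members, the lists and the word classes were chosen with earlier results of these data known.

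Deviations from the genotype means were correlated across probe sets between arrays of the same number, at 0.482, 0.206 and 0.363. All exceed 0.1, and a pairing by number was fitted as a block, as an alternative. The main fit, with its SEs, p-values and SDs, does not use the numbers. The labels do not say what a number marks, and the correlation of wild type 2 was higher with dcl1-15 replicate 3, at 0.306. That of wild type 3 with dcl1-15 replicate 2 was 0.153, so a value above 0.1 was not particular to arrays of the same number. Over the 97 members the correlations between arrays of the same number were 0.553, 0.035 and 0.612. There, wild type 2 had 0.050 with dcl1-15 replicate 3. Alternatives were another scale, threshold, filter or test, the pairing as a block, and each array left out.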

Additional observations from a re-analysis of the deposited data

How the results depend on the processing

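The number of members was 61 with the higher of the 2 other level thresholds and 49 with a difference threshold of 0.1, 143 and 138 with the looser level and difference thresholds, 74 with arrays centred on the reference genes, and 88 to 103 with 1 array left out; 57 of the 97 stayed members whichever array was left out. The count of probe sets called in the whole table was 2082 by the Welch test, 4161 with a floor at log2 of 4 and 4409 among means of 5 or more, against 6702, and 4486 to 7976 with 1 array left out. Members called were 4 with arrays centred on the reference genes, 6 after quantile normalization, 0 to 1 with 1 array left out (AT2G26500 without wild type 1), and 1 without the arrays numbered 1, an alternative chosen after seeing the data. Centring on AT2G28390 and AT4G34270 moved the median of all differences by -0.136 and that of the members to -0.186, leaving 55 of the 97 under 0.2, and 36.1% of calls were then higher, against 46.9%. The first of these reference genes itself differed by 0.39. Members' median differences ran from -0.081 to 0.0053 with 1 array left out, and their median SD from 0.0957 to 0.137. The replicate block gave 8425 calls in the whole table and 0 among the members, with a median SD of 0.0937; of the genes sharing a family name with a member, it changed no call. Of 130 recomputed differences of the 13 members named by the rule, 115 moved by less than the within-genotype SD. The planned motif search in promoters was not run, as no promoter sequence was used here.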
